A study of Mus musculus with 8 samples.

Results

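Scavenger receptors are membrane proteins that bind modified lipoproteins and many other negatively charged ligands and take them into the cell. Values are given for 10 genes of the group, Olr1, Scara3, Scara5, Msr1, Marco, Cd36, Scarb1, Scarb2, Stab1 and Stab2, out of 22180 genes measured. They were chosen because Olr1 was lower and Scara3 higher in lines from one of the tumour types compared, and the other 8 are relatives of these genes. The values that chose them are those of the comparison between tumour types, which is therefore given for all 10 as a description without a p-value.

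Expression was measured in 8 clonal mouse lines of the C57BL/6 strain, 4 labelled intrahepatic cholangiocarcinoma (ICC, a liver cancer with bile duct features) and 4 labelled hepatocellular carcinoma (HCC, a liver cancer with hepatocyte features). Both tumour types came from hepatocytes transformed in the animal by c-Myc and NrasG12V, delivered on the pCaMIN vector, so all 8 lines carry these oncogenes. The vector was given by electroporation of a small area of the liver for ICC and by hydrodynamic injection into the tail vein for HCC, so tumour type and route of delivery cannot be told apart. The female-labelled lines are ICC9, ICC10, HCC2.1 and HCC2.4, and the male-labelled lines are ICC2.7, ICC2.9, HCC1 and HCC4. The lines were untreated and grown in DMEM with 10% fetal calf serum at 7.5% CO2. No ages are used here. Each line is 1 clone, was hybridised to 1 array, and may share an animal or tumour with another line, which the labels do not state, so errors measure only the spread between these lines.

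The array medians lay between 5.02 and 5.09 on the log2 scale. The 8 arrays hold only 7 independent directions: for the 10 genes the value of ICC9 equals a weighted sum of the other lines to within 0.0082, with ICC10 carrying the largest weight (0.688). The dependence is shared and does not single out ICC9, since ICC10 could be written from the other lines in the same way. The 8 lines are therefore not 8 independent values, and results are also given without ICC9. Limma called 0 of 8 hepatocyte and 0 of 5 bile duct genes between the types, where 0.261% of all genes were called. The hepatocyte genes Alb (4.32 ± 0.22 in ICC and 4.28 ± 0.14 in HCC, SD, n = 4 each) and Afp (5.43 ± 0.26 and 5.45 ± 0.10) had close means in both types. Of the 5 bile duct genes 3 were higher in ICC. Epcam (4.48 ± 0.40 and 4.77 ± 0.26) and Sox9 (11.56 ± 0.11 and 11.67 ± 0.18) were lower, by -0.30 and -0.10. The hepatocyte factor Hnf4a averaged 5.51 ± 0.27 in ICC and 6.34 ± 0.97 in HCC lines, and the bile duct keratin Krt19 averaged 7.88 ± 1.45 and 7.03 ± 1.18, with wide spreads within a type.

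The scavenger receptors are grouped in classes by structure, not by a common ancestor. Class A proteins (Msr1, Marco, Scara3 and Scara5) have collagen-like stalks, class B proteins (Cd36, Scarb1 and Scarb2) cross the membrane at both ends, Olr1 of class E is a C-type lectin-like protein, and the class H proteins Stab1 and Stab2 are long receptors with repeated epidermal growth factor-like domains. In healthy liver, Msr1 and Marco are known from Kupffer cells, Stab1 and Stab2 from the sinusoidal endothelium, and Scarb1 from hepatocytes, where it takes up cholesterol from high-density lipoprotein.

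Olr1, also called LOX-1, is the receptor for oxidised low-density lipoprotein known from activated endothelium. It was low in every ICC line and high in every HCC line. Olr1 measured 5.99 in ICC9, 6.16 in ICC10, 5.75 in ICC2.7 and 5.73 in ICC2.9, against 9.01 in HCC1, 8.37 in HCC4, 8.77 in HCC2.1 and 8.71 in HCC2.4 (log2 signal). The types were separated by a gap of 2.21 between the highest ICC and the lowest HCC line, and no line of one type came near the other type. The means were 5.91 ± 0.21 in ICC and 8.72 ± 0.26 in HCC lines (SD, n = 4 each), a log2 difference of -2.81 (SE 0.15), or 7.0-fold lower in ICC. In RNA from whole cultures, fewer cells expressing a gene and less RNA per cell cannot be told apart. Without any 1 line the difference stayed between -2.92 and -2.71, and without ICC9 it was -2.84.

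The sequence before the Olr1 start is shown because Olr1 had the widest gap between the types among the 10 genes. RefSeq entries were found for 6 of the 10 promoters (Olr1, Marco, Cd36, Scarb2, Stab1 and Stab2), and the 250 bases before each start were searched on both strands for 6 motifs. These were the E-box that MYC and MAX bind (CACGTG), the site of the Fos and Jun factors known as AP-1 (TGANTCA), the core promoter element named the TATA box (TATAAA), the box bound by the trimeric factor NF-Y (CCAAT), the element known as the GC box of Sp1 (GGGCGG), and the site of the C/EBP family of liver factors (TTGCNNAA). The Olr1 stretch lies at chr6:129507166-129507415 on the minus strand of GRCm38.p6 and is printed 5′ to 3′ from RefSeq, with motif matches in capitals.
Olr1 promoter: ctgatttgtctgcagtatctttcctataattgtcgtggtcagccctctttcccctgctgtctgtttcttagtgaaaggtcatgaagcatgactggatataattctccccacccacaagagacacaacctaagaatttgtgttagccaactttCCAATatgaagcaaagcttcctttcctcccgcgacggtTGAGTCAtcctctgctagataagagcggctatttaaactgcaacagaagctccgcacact
The matches in Olr1 were an AP-1 motif, 60 to 54 bases before the start, and a CCAAT motif, 98 to 94 bases before it, which do not overlap. RefSeq's span of the gene reaches 185 bases further upstream than the start used here, so both matches lie inside that span. Of all 32851 promoters searched, 6.75% held the AP-1 motif and 33.8% the CCAAT motif. The other 4 motifs had no match in this window, while 6.02% of all promoters held the MYC E-box, 12.4% the TATA box, 32.7% the GC box and 9.56% the C/EBP site. Among the other 5 promoters, the NF-Y box was found in Cd36 and Stab1 and the GC box in Cd36 and Scarb2. A match describes letters only, and no binding was measured.

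Scara3, a class A member known from the response to oxidative stress, had the opposite direction and varied more. It measured 8.99 in ICC9, 8.19 in ICC10, 9.46 in ICC2.7 and 9.26 in ICC2.9, against 5.49 in HCC1, 5.18 in HCC4, 6.72 in HCC2.1 and 6.94 in HCC2.4. The lowest ICC line, ICC10, lay 1.25 above the highest HCC line, HCC2.4. The means were 8.98 ± 0.56 in ICC and 6.08 ± 0.88 in HCC lines (SD, n = 4 each), a log2 difference of 2.89 (SE 0.43), or 7.43-fold higher in ICC. Without any 1 line the difference stayed between 2.59 and 3.18, and without ICC9 it was 2.89.

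**Figure D1:**
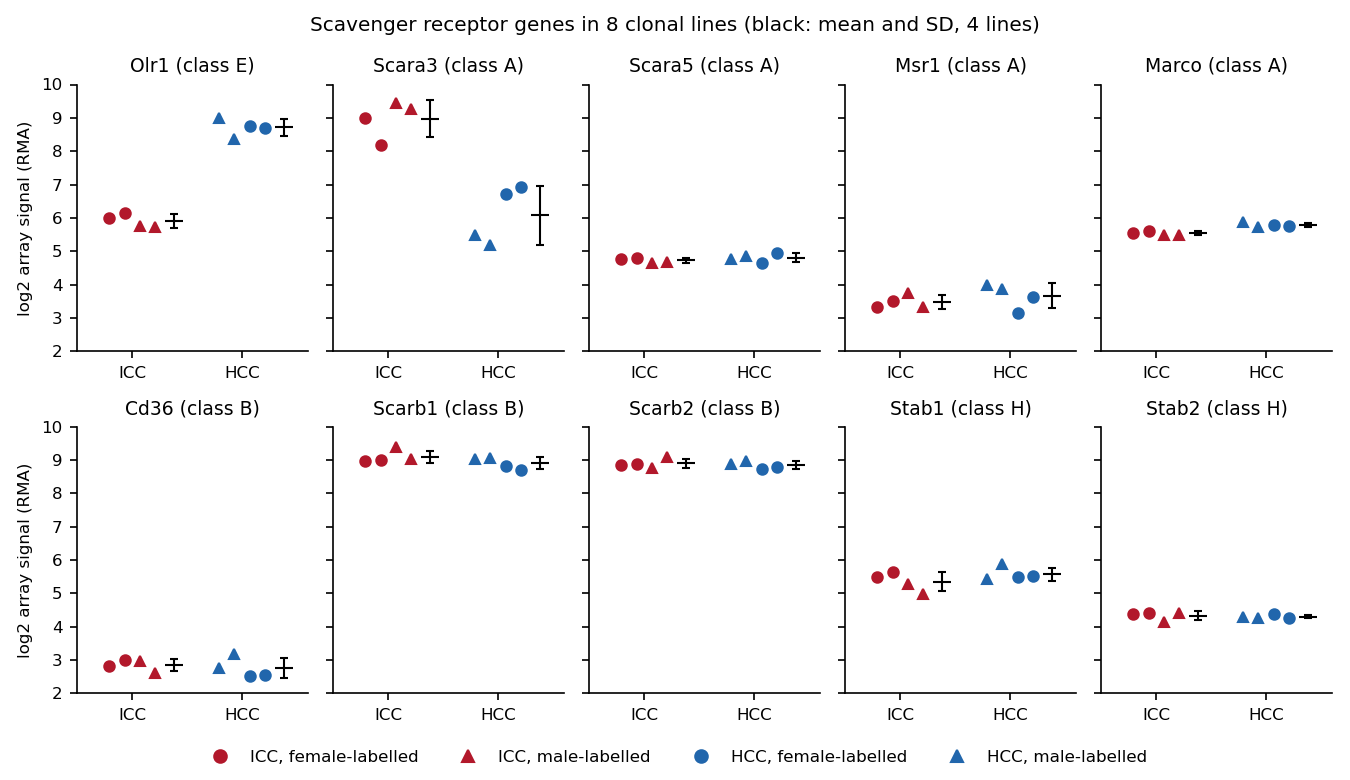
Log2 array signal of the 10 scavenger receptor genes in each line, with ICC lines in red, HCC lines in blue, circles for female-labelled and triangles for male-labelled lines, and black bars for the mean and SD of 4 lines. Olr1 is lower and Scara3 higher in all ICC lines, while the other 8 genes differ by less than 0.3 between type means.

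Within the HCC lines Scara3 split by pair: the female-labelled HCC2.1 and HCC2.4 averaged 6.83 and the male-labelled HCC1 and HCC4 averaged 5.34. Within the ICC lines the order was the other way round, with 9.36 in the male-labelled and 8.59 in the female-labelled pair. From high to low the 4 pairs were thus male-labelled ICC, female-labelled ICC, female-labelled HCC and male-labelled HCC. The gap between the 2 ICC pair means (0.77) was smaller than the 0.80 between ICC9 and ICC10, so these neighbours did not differ beyond their spread. The 2 HCC pairs differed by 1.5, while the lines within each HCC pair differed by 0.22 and 0.31. As a result the ICC minus HCC difference of Scara3 was 4.03 in male-labelled lines (16.3-fold) and 1.76 in female-labelled lines (3.39-fold).

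The interaction of tumour type and labelled sex, which did not enter the choice of the genes, asks whether these differences differ. For Scara3 it was -2.27 (SE 0.36), with a limma adjusted p of 0.113. Limma called 0 of the 10 genes and 0 of 22180 overall (0.0%), and 1 of the 10 (Scara3) had an unadjusted p under 0.05, against 20.1% of all genes (4467). With the missing direction in the model the interaction of Scara3 was -2.57 and was called (limma adjusted p = 0.0101). In that fit 255 of all genes were called. Without ICC9 it was -2.67, but the female-labelled ICC arm is then ICC10 alone, assumed to vary like the other groups. Over all 15 alternatives the interaction of Scara3 lay between -2.67 and -1.87, so its size moved both ways. For Olr1 the interaction was 0.29 (SE 0.28, adjusted p = 0.601), with ICC minus HCC differences of -2.67 in female-labelled and -2.95 in male-labelled lines. Within a type each labelled sex is 1 pair of lines, which may share an animal, so sex and pair of lines cannot be told apart.

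**Figure D2:**
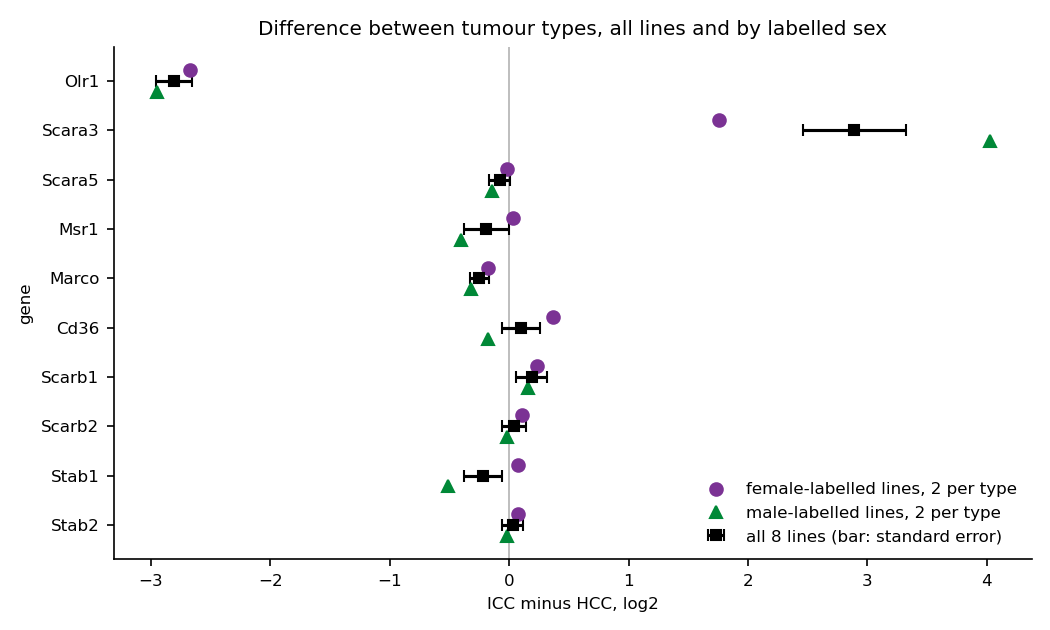
ICC minus HCC difference in log2 signal for each of the 10 genes over all 8 lines (squares, bar: standard error), over female-labelled lines (circles) and over male-labelled lines (triangles), with 2 lines per type and sex. Scara3 has 1.76 in female-labelled and 4.03 in male-labelled lines, while Olr1 has -2.67 and -2.95.

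The 3 other class A genes showed small differences. Over all lines Marco averaged 5.66, Msr1 3.57 and Scara5 4.77, none above the median level over genes (5.66). Cd36 (2.81), Stab1 (5.46) and Stab2 (4.31), given below, were not above it either. Whether these signals lie above background could not be assessed. Marco, which binds bacteria and particles on macrophages, measured 5.56 in ICC9, 5.62 in ICC10, 5.50 in ICC2.7 and 5.48 in ICC2.9, against 5.87 in HCC1, 5.74 in HCC4, 5.78 in HCC2.1 and 5.75 in HCC2.4. The types did not overlap, but the gap was 0.12 and the difference -0.25 (SE 0.08), or 1.19-fold lower in ICC. Msr1, the macrophage receptor for acetylated low-density lipoprotein, ranged from 3.32 to 3.75 in ICC and from 3.16 to 4.0 in HCC lines, which overlapped. Scara5, a ferritin receptor, ranged from 4.65 to 4.81 in ICC and from 4.66 to 4.96 in HCC lines, again with overlap. The differences were -0.19 (SE 0.19) for Msr1 and -0.08 (SE 0.09) for Scara5.

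Class B genes were at similar levels in both types. Scarb1 measured 8.97 in ICC9, 8.99 in ICC10, 9.38 in ICC2.7 and 9.03 in ICC2.9, against 9.04 in HCC1, 9.06 in HCC4, 8.81 in HCC2.1 and 8.69 in HCC2.4. The highest value was that of ICC2.7 and the lowest those of the female-labelled HCC lines, and the types overlapped (difference 0.19, SE 0.13). Scarb2, the lysosomal membrane protein that carries glucocerebrosidase to the lysosome, ranged from 8.75 to 9.08 in ICC and from 8.74 to 8.98 in HCC lines (difference 0.04, SE 0.10). Cd36, which takes up long-chain fatty acids and oxidised lipoprotein, ranged from 2.62 to 2.99 in ICC and from 2.53 to 3.19 in HCC lines (difference 0.10, SE 0.16). Cd36 differed by 0.37 in female-labelled and by -0.18 in male-labelled lines, with an interaction of 0.55 (SE 0.25, limma adjusted p = 0.272).

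Class H genes also overlapped between the types. Stab1, a clearance receptor of sinusoidal endothelium and some macrophages, measured 5.48 in ICC9, 5.65 in ICC10, 5.29 in ICC2.7 and 4.98 in ICC2.9, against 5.42 in HCC1, 5.87 in HCC4, 5.48 in HCC2.1 and 5.51 in HCC2.4. The 2 male-labelled ICC lines were the lowest and HCC4 the highest. The difference was -0.22 (SE 0.16), and by sex it was 0.07 in female-labelled and -0.51 in male-labelled lines, with an interaction of 0.58 (SE 0.25, limma adjusted p = 0.250). Stab2, the sinusoidal receptor for hyaluronan, ranged from 4.13 to 4.40 in ICC and from 4.26 to 4.38 in HCC lines (difference 0.03, SE 0.09).

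Limma called 2 of the 10 genes between the types, Olr1 lower and Scara3 higher in ICC, where 0.261% of all genes were called (0.131% in each direction). The same 2 genes had an absolute log2 difference of at least 1, against 1.64% of all genes. Types did not overlap in 3 of the 10 (Olr1, Scara3 and Marco), against 8.63% of all genes (4.44% lower and 4.19% higher in ICC). These counts and calls describe the comparison that chose the genes and nothing is read from them. The same holds for a call that is kept or lost in another fit. Of the 10 differences 5 were above and 5 below 0, with a median of -0.03 beside 0.00 over all genes. The call of Olr1 was lost where the 2 lines of one type and sex were averaged. That of Scara3 was lost there too, with a random block for type and sex, with the missing direction in the model (with or without sex), and without any 1 line other than ICC10.

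The comparison of female- and male-labelled lines, with tumour type in the model, was independent of the choice of genes. Limma called 0 of the 10 genes, against 2.94% of all genes, and 1 of the 10 had an unadjusted p under 0.05, against 17.5% of all genes. That gene was Scarb1, which averaged 8.87 in the female-labelled and 9.13 in the male-labelled lines (difference -0.26, SE 0.09, adjusted p = 0.201). Msr1 averaged 3.41 and 3.74 (difference -0.33, SE 0.16, adjusted p = 0.322). For Olr1 the difference was 0.19 (SE 0.14, adjusted p = 0.554) and for Scara3 it was 0.36 (SE 0.44, adjusted p = 0.736), which averages opposite directions in the 2 types (-0.77 in ICC and 1.5 in HCC lines). Without ICC9 the sex difference was 0.20 for Olr1 (adjusted p = 0.791) and 0.43 for Scara3 (adjusted p = 0.860). Over 19 alternatives for each, Olr1 and Scara3 were never called.

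The pattern over the 8 lines was compared with that of 18225 protein-coding genes by Pearson correlation, which ignores the size of a difference. Correlations are descriptions over 8 lines that fall into the 2 types. The genes were picked for likeness to Olr1 or Scara3, which were themselves chosen by their difference between the types. Calls and p-values of the picked genes between the types therefore follow in part from the choice and are no independent support. Olr1 was most like Usp12, a deubiquitinase (r = 0.989), Hif1a, the hypoxia-responsive transcription factor (0.986), Col7a1, an anchoring-fibril collagen (0.982), Pde3b, a cyclic nucleotide phosphodiesterase (0.980), and Igfbp3, a secreted protein that binds insulin-like growth factors (0.980). The sizes differed widely: Igfbp3 was lower in ICC by -2.90 (SE 0.18), Pde3b by -1.24, Col7a1 by -1.01, Hif1a by -0.42 and Usp12 by -0.30 on the log2 scale. Limma called Igfbp3 (adjusted p = 0.00103), Col7a1 (0.0206) and Pde3b (0.0250), but not Hif1a (0.0696) or Usp12 (0.125). In other fits Hif1a was called, as with sex in the model (0.0401) and with array weights (0.00467), but not with a random block for type and sex (0.313). Usp12 was called with array weights (0.0115) but not with that block (0.472). The most opposite patterns were those of Dnmbp, a guanine nucleotide exchange factor scaffold (-0.995), Fdx1 (-0.981) and Cstl1 (-0.981). Dnmbp was higher in ICC by 1.0 (SE 0.09, adjusted p = 0.0100), while Fdx1 (0.12, adjusted p = 0.476) and Cstl1 (0.15, adjusted p = 0.373) were not called. Igfbp3 stayed called without any 1 line and with a random block for type and sex (adjusted p = 0.00272), but not with the pairs averaged (0.600). The block ended the calls of Col7a1 (0.159), Pde3b (0.176) and Dnmbp (0.0651). Without ICC9 the adjusted p rose to 0.0974 for Col7a1, 0.105 for Pde3b and 0.0588 for Dnmbp, and calls were also lost without ICC2.7, ICC2.9, HCC2.1 or HCC2.4 for Col7a1 and Pde3b and without HCC2.1 for Dnmbp.

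Scara3 was most like Evc2, a ciliary protein of Hedgehog signalling (r = 0.995). Evc2 measured 7.85 in ICC9, 7.45 in ICC10, 8.13 in ICC2.7 and 7.97 in ICC2.9, against 6.19 in HCC1, 6.29 in HCC4, 6.85 in HCC2.1 and 6.98 in HCC2.4. It shared with Scara3 the low ICC10 and the higher female-labelled HCC pair, at a smaller difference of 1.27 (SE 0.21, adjusted p = 0.0553). In other fits Evc2 was called, as with sex in the model (adjusted p = 0.0330) and in the male-labelled lines (1.81, adjusted p = 0.0176), but not with the random block (0.187). The next were Bcl2l13 (0.993), the histone deacetylase Hdac3 (0.990), Hebp2 (0.989) and Septin7 (0.989), which differed between the types by 0.12, 0.22, 0.40 and 0.28. The most opposite was the protease Ctsw (-0.992), called lower in ICC (-1.20, SE 0.15, adjusted p = 0.0250) but not without ICC9 (adjusted p = 0.105), ICC2.7, ICC2.9, HCC2.1 or HCC2.4, nor with the random block (0.0818), then Tmed4 (-0.987) and Arid4b (-0.986).

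**Figure D3:**
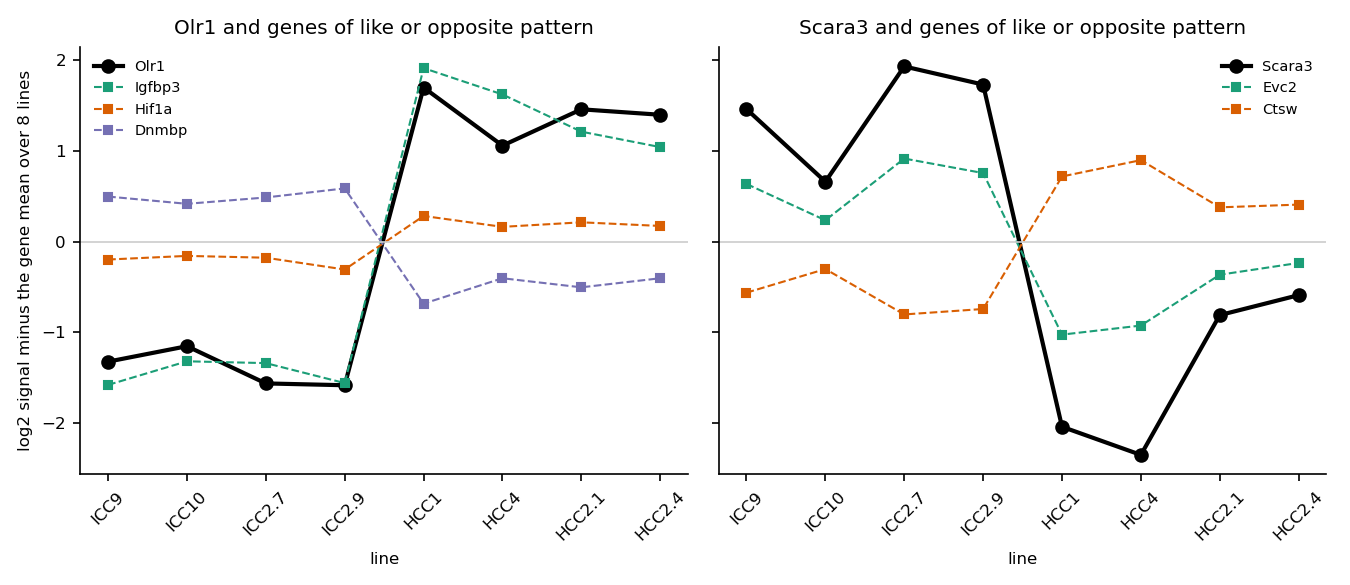
Log2 signal minus the mean of the gene over 8 lines, by line, for Olr1 with Igfbp3, Hif1a and Dnmbp (left) and for Scara3 with Evc2 and Ctsw (right). Igfbp3 follows Olr1 at a like size, while Evc2 follows Scara3 with a difference of 1.27 between types.

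Among the 10 genes themselves Olr1 and Marco were most alike (r = 0.96), and Scara3 was opposite to Marco (-0.92) and Olr1 (-0.91). These 3 are the genes whose types did not overlap, so the correlations repeat that split. For the other members the 2 genes of most similar pattern were Rdh11 (0.992) and Grk1 (0.988) for Marco, Catsper3 (0.980) and Tmem61 (0.972) for Scara5, and Kcnj9 (0.964) and Ascl2 (0.962) for Msr1. They were Rps14 (0.986) and Znrf4 (0.966) for Cd36, Tspear (0.981) and Numbl (0.979) for Scarb1, and Gsta4 (0.965) and Slc5a6 (0.964) for Scarb2. For Stab1 they were Galnt9 (0.991) and Sv2a (0.984), and for Stab2 Lexm (0.964) and Rasd2 (0.952).

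By RefSeq order on GRCm38.p6, Olr1 lies among the C-type lectin genes of chromosome 6. Its 3 measured neighbours on one side, Clec1b, Clec1a and Clec7a, differed by -0.07, -0.08 and -0.32 between ICC and HCC, and those on the other side, Tmem52b, 1700101I11Rik and Gabarapl1, by -0.14, -0.23 and -0.43. None of the 6 was called, with limma adjusted p from 0.219 (Gabarapl1) to 0.871 (Clec1b). Gabarapl1, an autophagy gene, was the only one of the 6 whose types did not overlap (9.77 to 10.25 in ICC and 10.26 to 10.67 in HCC).

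Scara3 and Scara5 lie near each other on chromosome 14, with 3 measured genes between them, Pbk, Esco2 and Ccdc25. Scara5 did not share the difference of Scara3, and the genes between differed by 1.25 (Pbk, a mitotic kinase), 0.76 (Esco2, a cohesin acetyltransferase) and -0.55 (Ccdc25), with limma adjusted p of 0.146, 0.343 and 0.401. On the other side the next measured gene was Clu, a secreted chaperone, which measured 10.87 in ICC9, 11.05 in ICC10, 9.79 in ICC2.7 and 9.69 in ICC2.9, against 11.65 in HCC1, 11.24 in HCC4, 12.34 in HCC2.1 and 12.22 in HCC2.4. Clu was thus lower in all ICC lines, opposite to its neighbour (-1.51, SE 0.37, adjusted p = 0.128), and was called with sex in the model (adjusted p = 0.00301) but not with the random block (0.334). Clu was also called higher in the female-labelled lines (1.03, SE 0.13, adjusted p = 0.00711), in 17 of 19 alternatives. Beyond it Gulo and Adam2 differed by -0.30 and 0.32 (adjusted p = 0.439 and 0.376).

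**Figure D4:**
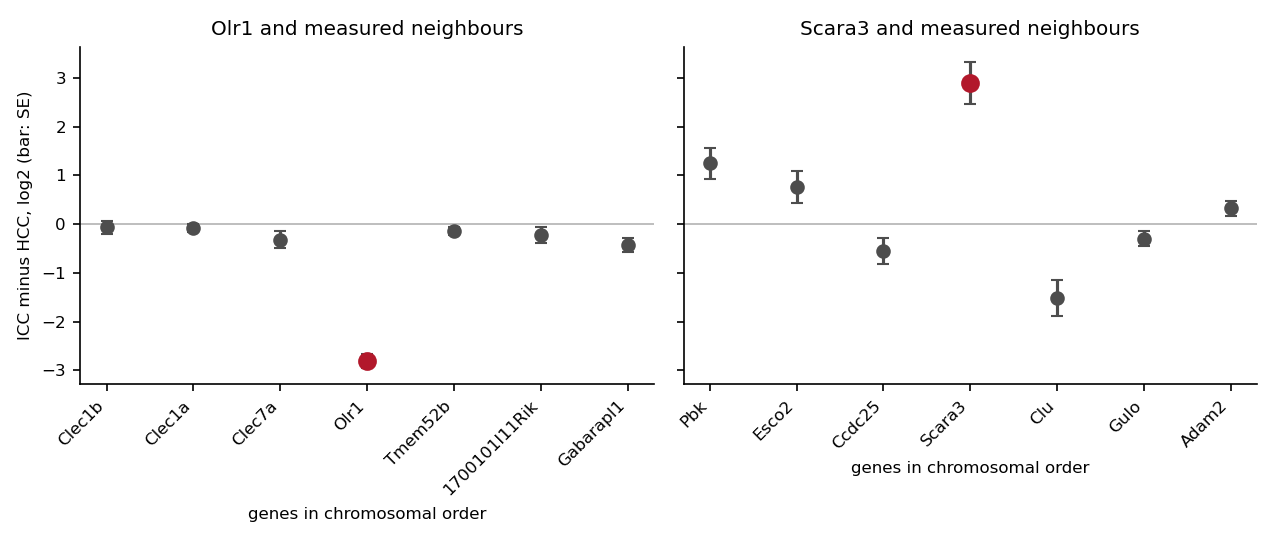
ICC minus HCC difference in log2 signal (bar: standard error) of Olr1 (left, red) and Scara3 (right, red) and of the 3 measured genes on each side, in chromosomal order without distances. Olr1 at -2.81 stands among genes between -0.43 and -0.07, and Scara3 at 2.89 stands next to Clu at -1.51.

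Related genes were described by 9 lists, whose counts stand beside 0.261% of all genes called and 14.1% at an unadjusted p under 0.05. Lrp1, Cd14, Cd68 and Apoa1 each stand in 2 of the lists. Of 16 other scavenger receptors limma called 0 between the types, 1 had an unadjusted p under 0.05, and the median difference was -0.15 beside 0.00 over all genes. The smallest p in this list belonged to Lrp1, a large endocytic receptor of lipoproteins, at 10.40 ± 0.32 in ICC and 10.85 ± 0.17 in HCC lines (SD, n = 4 each, adjusted p = 0.274), and to Lgals3bp, a scavenger receptor cysteine-rich protein, at 10.42 ± 0.79 and 11.12 ± 0.15 (adjusted p = 0.394). Lrp1 was called in the female-labelled lines only (-0.85, adjusted p = 0.0468) and with array weights (-0.61, adjusted p = 0.0162).

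Between female- and male-labelled lines, with type in the model, limma called 4 of these 16 genes, where 2.94% of all genes were called. The list was chosen with earlier results of these data known, so the count is a description and no enrichment is read from it. Cxcl16, a membrane chemokine that binds oxidised lipoprotein, measured 8.89 in ICC9, 9.13 in ICC10, 9.24 in HCC2.1 and 9.23 in HCC2.4, against 6.06 in ICC2.7, 5.94 in ICC2.9, 6.92 in HCC1 and 6.63 in HCC4. It was thus higher in the female-labelled lines of both types (difference 2.74, SE 0.14, adjusted p = 0.000108). The mannose receptor Mrc1 (2.01, SE 0.32, adjusted p = 0.0196) and the lipopolysaccharide co-receptor Cd14 (1.21, SE 0.24, adjusted p = 0.0425) were also higher in these lines, and Scarf2 was lower (-1.46, SE 0.17, adjusted p = 0.00606). Over 19 alternatives Cxcl16 was called in 19, Scarf2 in 17, Mrc1 in 14 and Cd14 in 7. Without ICC9 the adjusted p was 0.0704 for Mrc1 and 0.154 for Cd14, and Mrc1 was also missed without ICC2.9 (0.0646), HCC2.1 (0.0690) or HCC2.4 (0.0732), and Cd14 without any line other than HCC4. Mrc1 and Cd14 are also known from macrophages, and some other macrophage genes differed between the same lines without passing the test. Ptprc averaged 3.84 in female- and 3.50 in male-labelled lines (adjusted p = 0.106), Adgre1 3.95 and 3.64 (0.213), and C1qc 4.12 and 4.35 (0.213). Clec7a, a myeloid lectin next to Olr1, averaged 5.04 and 4.63 (adjusted p = 0.0758). With array weights Ptprc (0.0227) and Clec7a (0.0285) were called. Of the remaining macrophage and Kupffer genes, female minus male was -0.19 for Itgam, -0.18 for C1qb, -0.17 for Timd4 and -0.07 for Csf1r. It was -0.05 for Clec4f and Vsig4, 0.01 for C1qa, 0.19 for Lyz2 and 0.47 for Cd68, with no call. The part of these genes in the differences of Mrc1 and Cd14 was not tested.

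Of 19 measured genes of lipoprotein uptake and sterol handling, limma called 0 and 4 had an unadjusted p under 0.05, with a median of -0.07. Lpl, the lipoprotein lipase, measured 5.35 in ICC9, 5.15 in ICC10, 5.75 in ICC2.7 and 5.81 in ICC2.9, against 4.32 in HCC1, 4.52 in HCC4, 4.21 in HCC2.1 and 4.69 in HCC2.4. All ICC lines lay above all HCC lines, with a difference of 1.08 (SE 0.17, adjusted p = 0.0529). Lpl was called without ICC10 (adjusted p = 0.0421) and with sex in the model (0.0190), but not with the random block for type and sex (0.204). Lcat, which esterifies cholesterol on lipoproteins, also separated the types (5.96 ± 0.18 and 5.46 ± 0.09, adjusted p = 0.103).

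Among 9 measured genes known to respond when Olr1 is engaged, limma called 0, 1 had an unadjusted p under 0.05, and the median was 0.07. Nfe2l2, the transcription factor of the antioxidant response, measured 11.08 ± 0.09 in ICC and 10.82 ± 0.14 in HCC lines without overlap (adjusted p = 0.295). The adhesion molecule Vcam1 measured 9.85 ± 1.24 and 8.49 ± 0.80 (adjusted p = 0.365). Among 7 measured genes listed as lysosome and ferritin partners limma called 0, 2 had an unadjusted p under 0.05, and the median was 0.10. The 2 were Clu, the secreted chaperone given above, and Fth1, the ferritin heavy chain (13.08 ± 0.18 and 12.84 ± 0.07, adjusted p = 0.348).

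**Figure D5:**
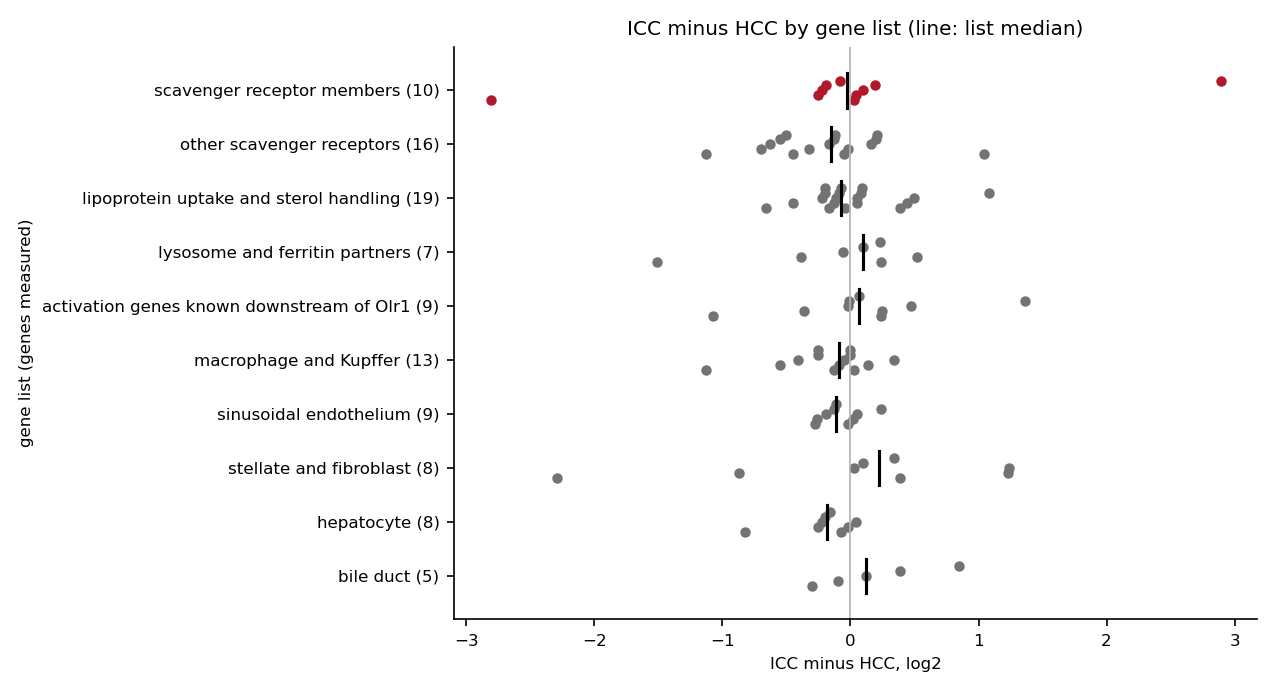
ICC minus HCC difference in log2 signal of each measured gene (points) in the 10 scavenger receptors (red) and in 9 related gene lists (grey), with the list median as a black line and the number of genes in brackets. Olr1 and Scara3, which were chosen by this difference, lie outermost, and the medians of the 9 lists lie between -0.18 and 0.22.

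Markers of the cell types that carry these receptors in liver were checked because cultures can hold other cells. Levels of different probe sets cannot be ranked against each other, so values are compared only between lines. Limma called 0 of 13 macrophage and Kupffer genes between the types, and 1 had an unadjusted p under 0.05. The mean of this list ranged from 4.78 to 5.26 over ICC and from 5.10 to 5.32 over HCC lines. The defining genes Ptprc (3.74 ± 0.26 and 3.6 ± 0.16), Adgre1 (3.73 ± 0.22 and 3.86 ± 0.25) and Clec4f (5.01 ± 0.21 and 4.98 ± 0.06) had close means. Vsig4 differed by -0.25 (adjusted p = 0.245) and C1qc by -0.25 (adjusted p = 0.370). The widest difference of the list was that of Cd68, at -1.13 (SE 0.55, limma adjusted p = 0.399). Its levels spread from 7.31 to 10.04 over ICC and from 9.09 to 10.21 over HCC lines, with overlap. By sex Cd68 differed by 0.29 in female-labelled and by -2.54 in male-labelled lines (interaction 2.82, limma adjusted p = 0.113). Of the 13 genes 4 were higher in ICC, by at most 0.34 (Itgam).

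Of 9 sinusoidal endothelial genes 0 were called and 1 had an unadjusted p under 0.05, and the list mean ranged from 4.61 to 4.80 in ICC and from 4.75 to 4.79 in HCC lines. The defining genes Cdh5 (4.73 ± 0.16 and 4.75 ± 0.15), Lyve1 (4.85 ± 0.09 and 4.80 ± 0.17) and Clec4g (4.09 ± 0.21 and 4.22 ± 0.27) had close means. Tek differed by 0.24 (adjusted p = 0.251) and Pecam1 by -0.28 (adjusted p = 0.441).

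Of 8 stellate and fibroblast genes 0 were called and 2 had an unadjusted p under 0.05, Reln (0.34, adjusted p = 0.136) and Des (-0.87, adjusted p = 0.230). The list mean ranged from 5.39 to 6.98 in ICC and from 5.99 to 6.45 in HCC lines, and 3 genes named after their values were seen varied widely between ICC lines. The pericyte gene Rgs5 measured 6.08 in ICC9 and 4.40 in ICC10, against 10.01 in ICC2.7, 9.70 in ICC2.9 and 9.49 to 10.12 in HCC lines. The male-labelled ICC lines thus resembled the HCC lines, and the ICC minus HCC difference of -2.29 (adjusted p = 0.408) was -4.57 in female-labelled lines, where it was called (0.0342), and -0.02 in male-labelled lines. It was also called with array weights (-3.75, adjusted p = 0.0234), and without ICC10 it was -1.24 (adjusted p = 0.535). Pdgfrb, a growth factor receptor of mesenchymal cells, measured 8.41 in ICC9, 7.48 in ICC10, 10.55 in ICC2.7 and 9.89 in ICC2.9, against 6.66 to 8.37 in HCC lines (1.23, adjusted p = 0.446). Its difference was -0.25 in female-labelled and 2.71 in male-labelled lines. The collagen Col1a1 measured 7.03, 6.44, 9.82 and 8.19 in the same ICC lines, against 6.41 to 7.18 in HCC lines (1.24, adjusted p = 0.421), and without ICC2.7 its difference was 0.59 (adjusted p = 0.611).

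Of 8 hepatocyte genes 0 had an unadjusted p under 0.05 and of 5 bile duct genes 1 did, with median differences of -0.18 and 0.12. Hnf4a differed by -0.82 (adjusted p = 0.418). It was higher in HCC2.1 (7.26) and HCC2.4 (7.06) than in the other lines (5.32 to 5.92), and was called in the female-labelled lines (-1.52, adjusted p = 0.0372) but differed by -0.13 in the male-labelled ones. Serpina1a differed by -0.25 (adjusted p = 0.539), Cftr by 0.39 (0.338) and Krt7 by 0.12 (0.519). Krt19, named after its values were seen, measured 8.97 in ICC9, 9.26 in ICC10, 6.89 in ICC2.7 and 6.39 in ICC2.9, against 6.55 in HCC1, 5.60 in HCC4, 8.19 in HCC2.1 and 7.76 in HCC2.4. It was higher in ICC by 0.85 without passing the test (adjusted p = 0.666), was called in the female-labelled lines (1.14, adjusted p = 0.0485), and was called higher in female- than in male-labelled lines (2.19, SE 0.24, adjusted p = 0.00483), in 18 of 19 alternatives. The part of these cell types in the levels of the 10 genes was not tested.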

How the data were processed

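Total RNA of 8 lines (100 ng each) was prepared with the Affymetrix WT PLUS kit and measured on 1 array per line. The deposited values are log2 signals, made by the authors with RMA in the oligo package, per the submitters' processing notes; no version is stated there. Without scanner files, signal over background and saturation could not be assessed, and precision is limited by the 8 arrays. The table has 39993 probe sets. Those with a single gene symbol (23521) were kept, those with several (1814) or none here (14658) were left out, and per gene the one of highest mean over lines was used, giving 22180 genes without a filter on dim ones. Each of the 10 genes studied had 1 such probe set, and all 10 matched RefSeq by identifier.

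Differences were tested with limma 3.58.1 in R 4.3.3 (two-sided moderated tests by lmFit and eBayes, adjusted over all genes by Benjamini-Hochberg, called under 0.05): ICC against HCC without covariates, female- against male-labelled lines with type in the model, and their interaction. Values after ± are SDs over lines and SEs are moderated. The fit was tested on simulated data with known changes. Those arrays were drawn as independent, so the test does not cover the dependence between the real lines. Alternatives were other variance models, scalings, filters and covariates, the missing direction, pairs of lines as a block or averaged, and leaving out each line. Promoters came from RefSeq (GRCm38.p6).

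The members and lists were chosen with earlier results of these data known. Genes were named by rule: the members, from each list up to 4 called genes or the 2 of smallest p, the genes of most like and opposite pattern, and 3 neighbours on each side of Olr1 and Scara3. Marker genes and those said to be named after their values were seen lie outside it. Figures were made with Python 3.11.15, pandas 2.3.3, numpy 2.4.6 and matplotlib 3.10.9.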

Additional observations from a re-analysis of the deposited data

Results flagged for a closer look

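In 20 sets of 4 lines (the 10 genes in each type), 2 held a line far from the other 3, where chance gives about 1 in 20 sets of 4 independent values. Both are ICC sets, in which ICC9 is not independent of the other lines, so that rate does not hold for them. Scarb1 stood at 9.38 in ICC2.7 with the other ICC lines at 8.97 to 9.03. Stab2 stood at 4.13 in ICC2.7 with the other ICC lines at 4.37 to 4.40. Both belong to the same line and lie in opposite directions.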

How the results depend on the processing

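Of 22180 genes 58 were called between ICC and HCC. The count was within 1.5 times of that with trend and robust settings, quantile normalization, median centring or probe sets averaged per gene. It was 103 among genes above the median level, 2278 with array weights (whose iteration stopped before it converged), 12 with the missing direction, 428 with sex, 119 with sex and the missing direction, 6 with a random block for type and sex, 696 in female-labelled and 200 in male-labelled lines. It was 0 with lines of one type and sex averaged (limma, 1170 at an unadjusted p under 0.05). Leaving out a line gave 2 (without ICC9) to 109 (without HCC1), and the count also moved over 1.5 times without ICC2.7 (16), ICC2.9 (28), HCC4 (91), HCC2.1 (4) and HCC2.4 (5). Between female- and male-labelled lines 653 genes were called, 2036 with array weights, 280 with the missing direction, 246 without type, 334 with the random block, 1098 in ICC and 91 in HCC lines. Leaving out a line gave 146 (without ICC9) to 917 (without HCC4), and the count fell over 1.5 times without ICC10 (385), ICC2.7 (348), ICC2.9 (354), HCC2.1 (285) and HCC2.4 (294). For the interaction the count of 0 became 255 with the missing direction, and 0 to 238 without a line: 238 without ICC9 and 10 without ICC10. The causes were not tested.

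No called difference of the 10 genes changed sign. Differences between the types that were not called changed sign for Msr1 (0.03) and Stab1 (0.07) in female-labelled lines, for Cd36 (-0.18), Scarb2 (-0.02) and Stab2 (-0.02) in male-labelled lines, and for Scarb2 without ICC2.9 (-0.02). Sign changes in sex differences that were not called were Scara3 (-0.77) and Cd36 (0.11) in ICC lines and Marco (-0.04) and Stab1 (-0.15) in HCC lines. In the interaction, leaving out a line gave -0.04 (without HCC1) to 0.61 for Olr1, -0.03 (without HCC2.1) to 0.27 for Scara5, -0.10 (without ICC2.9) to 0.25 for Scarb1, -0.04 (without ICC2.7) to 0.29 for Scarb2 and -0.06 (without ICC2.7) to 0.22 for Stab2. Among other named genes, ICC minus HCC changed sign in female-labelled lines for Vcam1 (-0.05), Pdgfrb (-0.25), 1700101I11Rik (0.11), Catsper3 (0.03), Galnt9 (0.05) and Sv2a (0.10), and in male-labelled lines for Clec1b (0.04), Rps14 (-0.13), Znrf4 (-0.11) and Lexm (-0.01). Slc5a6 (-0.02 without ICC2.9, up to 0.08 without another line) and Lexm (0.00 without ICC10) also changed sign. Each of the 10 genes has 1 probe set, so no other probe set could be tried. No paired analysis was possible because the labels give the lines no shared replicate numbers.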
